A study of Mus musculus with 24 samples.

Results

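The genes that build cholesterol and fatty acids were read out in 4 myeloid populations sorted from the healthy colon lamina propria (LP) and from colon tumours of mice. They were the 29 genes of a list of mouse symbols, taken from the table of log2 RPKM (reads scaled by gene length and by library size) by Ensembl identifier, among 17301 genes in the table. All 29 were found, and 28 of them, every one but Acaca, passed the filter for testing (a mean of at least 1 RPKM in at least 1 group), among 12878 genes that did. A gene could pass through 1 group alone: Lss reached that mean in 1 of the 8 groups (tumour MHCIIhi macrophages), Idi1 in 2, Scd1 in 2 (both neutrophil groups), and Hsd17b7 and Tm7sf2 in 3 (macrophages). The 24 libraries formed 8 groups of 3. LP libraries came from C57BL/6J mice (labelled C57/BL) and tumour libraries from polyps of Apc Min/+ mice (labelled APC/Min), which carry a germline mutation of the Wnt pathway gene Apc and develop intestinal adenomas. In each tissue the sorted cells were F4/80hi MHCIIhi macrophages, F4/80hi MHCIIlow macrophages, Ly6Chi MHCII- monocytes and Ly6Ghi neutrophils. The tumour-bearing mice were young adults that had drunk dextran sodium sulphate, which injures the colon epithelium, and had recovered for some weeks. In the methods, control mice also drank dextran sodium sulphate, but at a lower concentration than Apc Min/+ mice. LP samples are nonetheless labelled as healthy, so it was not settled whether their donors had received it. Tissue from several mice was pooled for each library. Per the methods, cell preparation differed between the tissues. LP was stripped with EDTA and digested longer with collagenase, tumours were digested with collagenase and DNase I, and the Percoll steps differed. Genotype, tumour, tissue, cell preparation and any difference in dextran sodium sulphate therefore cannot be told apart in a comparison of tumour with LP. In sorted bulk samples fewer cells with a transcript and less of it per cell cannot be told apart either.

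Cholesterol is assembled from acetyl-CoA in steps that first make mevalonate and its isoprenoid products (the mevalonate arm), then join these into squalene, close the ring and trim the sterol (the squalene and sterol arm). The SREBP transcription factors switch on most of these genes when sterol in the endoplasmic reticulum is low. Scap escorts SREBP to the Golgi for activation, and the Insig proteins hold both back when sterol is plentiful. Fatty acid synthesis starts from the same acetyl-CoA, released from citrate by Acly, and passes through acetyl-CoA carboxylase (Acaca), fatty acid synthase (Fasn) and the stearoyl-CoA desaturases (Scd1 and Scd2). Macrophages combine this synthesis with uptake of lipid from dying cells and with efflux under control of LXR.

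Promoter windows of RefSeq (assembly GRCm38.p6, 250 bases before to 50 after a transcription start) were at hand for 23 of the 29 genes, in 31 windows. They were searched on both strands for 4 motifs. The sterol response-like motif TCACNCCAC was found in 1 of 31 windows (Hmgcs1), against 1.24% of 32851 windows of all genes. The CCAAT box (CCAAT), which binds NF-Y, was in 21 of 31 windows, against 37.4% of all. The GC box (GGGCGG), which binds Sp1, was in 24 of 31, against 35.7%. The E-box CACGTG was in 6 of 31, against 7.15%. These are matches of letters only, and a window without a match shows only that these letters are not in it. The 250 bases before the start are printed for 5 genes that the results below turn on: Hmgcs1, Mvd, Insig1 and Acly, which were higher in tumour cells of at least 1 population, and Msmo1, which was lower. Capitals mark any of the 4 motifs on either strand, so that ATTGG is a CCAAT box and CCGCCC a GC box on the other strand.
Hmgcs1, chr13:119690101-119690350, plus strand: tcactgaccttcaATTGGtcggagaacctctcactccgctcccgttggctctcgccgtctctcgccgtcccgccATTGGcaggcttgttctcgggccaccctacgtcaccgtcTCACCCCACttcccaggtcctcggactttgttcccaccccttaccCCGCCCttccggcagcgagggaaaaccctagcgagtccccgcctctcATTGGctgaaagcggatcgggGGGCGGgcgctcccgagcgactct
Mvd, chr8:122443423-122443672, minus strand: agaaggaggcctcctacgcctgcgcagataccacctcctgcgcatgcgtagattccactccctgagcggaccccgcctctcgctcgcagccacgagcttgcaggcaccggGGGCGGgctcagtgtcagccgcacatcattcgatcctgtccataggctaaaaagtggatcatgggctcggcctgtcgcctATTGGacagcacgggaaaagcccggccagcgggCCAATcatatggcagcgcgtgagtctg
Insig1, chr5:28071162-28071411, plus strand: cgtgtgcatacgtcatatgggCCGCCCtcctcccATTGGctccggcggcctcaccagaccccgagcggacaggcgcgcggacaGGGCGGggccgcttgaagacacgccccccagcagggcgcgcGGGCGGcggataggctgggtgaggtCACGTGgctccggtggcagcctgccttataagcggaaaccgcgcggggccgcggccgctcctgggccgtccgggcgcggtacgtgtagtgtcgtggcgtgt
Acly, chr11:100528001-100528250, minus strand: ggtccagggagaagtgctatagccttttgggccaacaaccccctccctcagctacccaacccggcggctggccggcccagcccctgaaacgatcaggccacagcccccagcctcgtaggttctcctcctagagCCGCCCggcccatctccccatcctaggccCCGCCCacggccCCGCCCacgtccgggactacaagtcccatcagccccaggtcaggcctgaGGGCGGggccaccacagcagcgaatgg
Msmo1, chr8:64733579-64733828, minus strand: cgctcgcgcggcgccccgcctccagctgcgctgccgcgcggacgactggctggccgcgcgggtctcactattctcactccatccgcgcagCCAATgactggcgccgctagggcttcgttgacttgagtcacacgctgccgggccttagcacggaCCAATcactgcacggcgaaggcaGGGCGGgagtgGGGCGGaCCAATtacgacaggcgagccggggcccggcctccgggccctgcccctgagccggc

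The libraries held 12838061 to 41718078 reads on genes (median 26389148). Macrophage markers summed to 3410 to 7120 RPKM in the 12 macrophage libraries and at most 710 elsewhere, as the sorts would give. Neutrophil markers summed to 11600 to 15100 RPKM in LP neutrophils, 21700 to 30600 in tumour neutrophils and at most 301 elsewhere. Monocyte markers summed to 730 to 1130 RPKM in LP monocytes, 2580 to 3130 in tumour monocytes and at most 644 elsewhere (tumour neutrophils). On the deposited scale, sorted neutrophils and monocytes thus differed between the tissues in their own markers, without overlap. Other cells left traces that differed between groups. Squamous keratinocyte markers (5 of 5 in the table, among them Krt5 and Krt14) summed to 1850 and 403 RPKM in LP monocyte libraries III and V, against 4.09 in LP monocyte library IV and at most 23.7 in every other library. Epithelial markers (10 of 10) summed to 115 to 346 RPKM in tumour monocytes against 24.5 to 213 in LP monocytes, and to 174 to 345 in tumour neutrophils against 16.9 to 74.4 in LP neutrophils. In macrophages they summed to 9.91 to 223 RPKM in tumour (223 in MHCIIlow library I) and 7.31 to 38.6 in LP. Fibroblast markers (6 of 6) summed to 6.83 to 62 RPKM in LP libraries and at most 1.57 in tumour libraries. B and plasma cell markers (6 of 6) summed to 157 to 575 RPKM in LP monocytes against 0.192 to 4.68 in tumour monocytes, to 358 to 1300 in LP neutrophils against 0.66 to 20.1 in tumour neutrophils, and to 11 to 229 in LP against 6.34 to 69.2 in tumour macrophages. Dendritic cell markers (4 of 4) summed to 19 to 42.8 RPKM in LP neutrophils against 0.664 to 3.13 in tumour neutrophils, and to 3.59 to 14.1 in LP against 0.0279 to 1.28 in tumour macrophages. In monocytes they summed to 6.06 to 9.29 RPKM in LP and 3.6 to 5.81 in tumour. Dendritic cell markers thus differed with tissue in every population. B and plasma cell markers did so without overlap in monocytes and neutrophils, and overlapped in macrophages. Erythroid markers (3 of 4 in the table) summed to 0.971 to 16.8 RPKM in tumour libraries and at most 0.604 in LP libraries. These differences lie beside the tumour and LP comparisons below. The part of such cells in the results below was not tested. Results that use LP monocytes are also given without libraries III and V, an alternative chosen after the data were seen. It leaves 1 LP monocyte library, assumed to vary like the libraries of the other groups.

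Across the 29 genes, levels in RPKM (a measure per gene length) spanned from under 1 to 70.9 (group values at the mean of the log values). Acly, which makes cytosolic acetyl-CoA from citrate, had the highest mean of the list in LP MHCIIhi macrophages, LP monocytes and all tumour groups but the neutrophils. In tumour monocytes the libraries were at 65.8 to 75.4 RPKM, the highest of any listed gene in any group. In LP MHCIIlow macrophages the highest was Insig1 at 24.3 RPKM, with libraries from 16.5 to 43.3 that lay on both sides of Acly (23.1 RPKM). Neutrophils stood apart. Their highest gene was Sc5d, a late sterol desaturase, at 55.9 RPKM in LP and 56.1 RPKM in tumour, and the next was Srebf2, the SREBP that serves mainly cholesterol synthesis (32.4 and 35.5 RPKM). The lowest gene was Dhcr7 in LP neutrophils, Acaca in tumour neutrophils and tumour MHCIIhi macrophages, Lss in LP MHCIIhi macrophages, and Scd1 in the other 4 groups. Acaca, left out of the tests, was at -0.73, -0.30 and -0.01 log2 RPKM in tumour MHCIIhi macrophages and -0.12, -1.42 and -0.76 in LP MHCIIhi macrophages, so that those 2 groups overlapped.

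**Figure D1:**
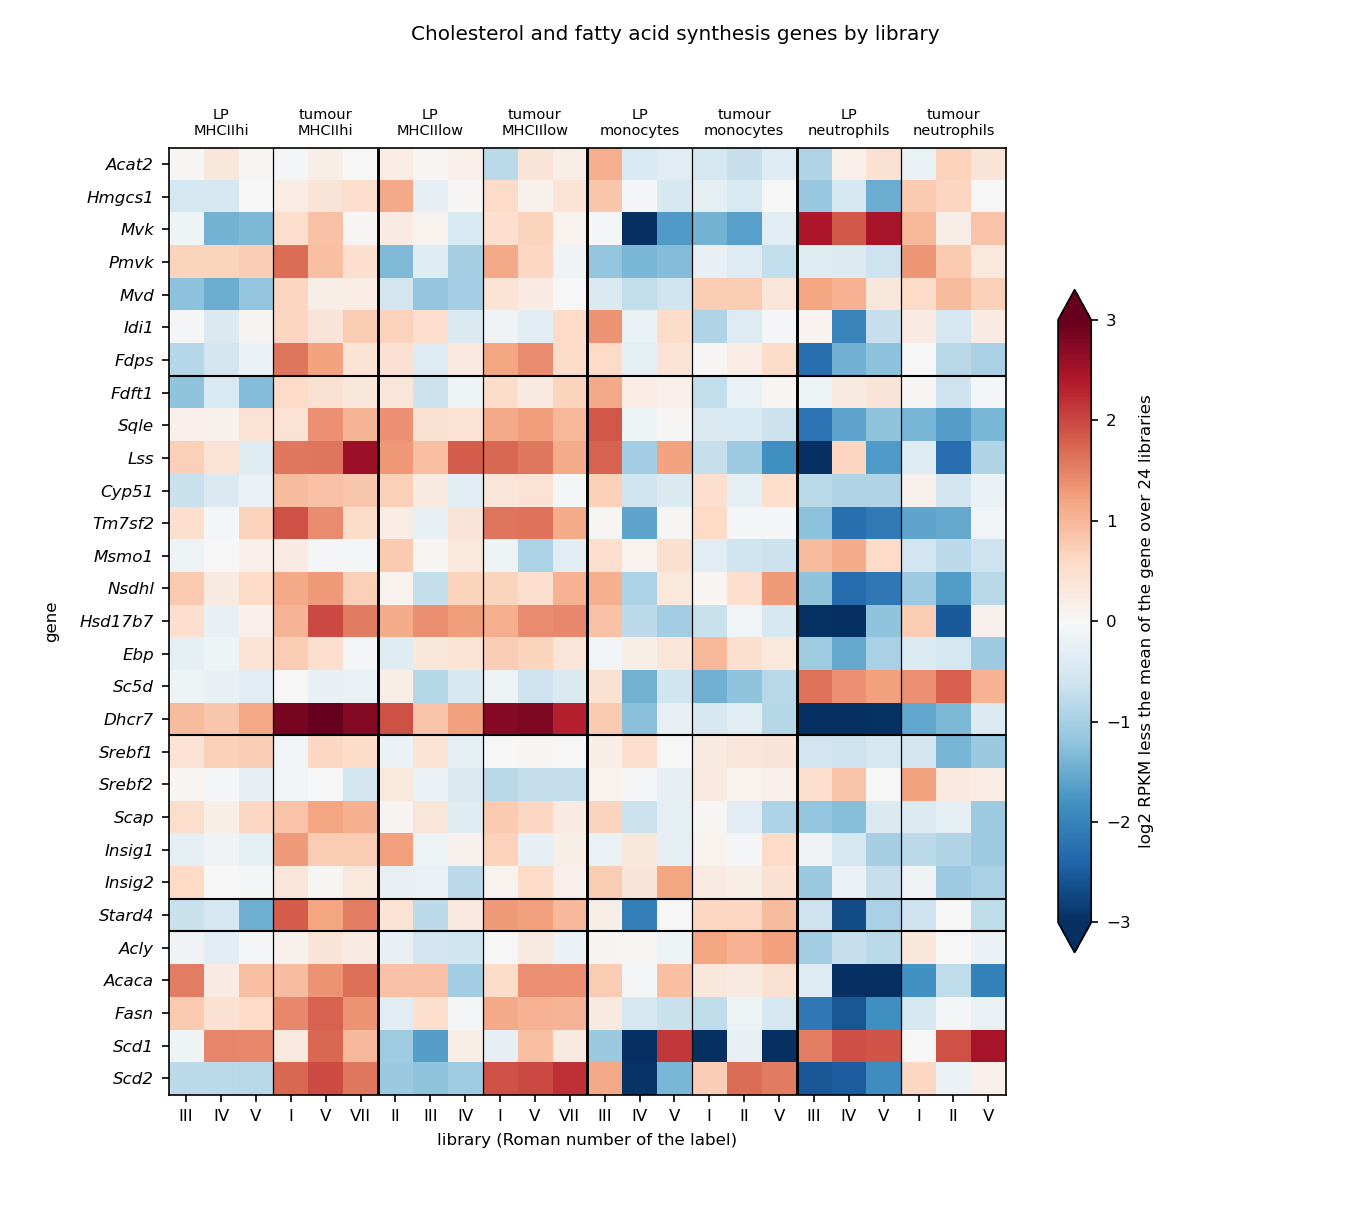
Level of each of the 29 genes (rows, by role: mevalonate arm, squalene and sterol arm, SREBP regulators, sterol transport, fatty acid synthesis) in each of the 24 libraries (columns, by group), as log2 RPKM less the mean of that gene over the 24 libraries. The tumour macrophage columns are mostly above the mean from Fdps to Dhcr7 apart from Msmo1 and Sc5d, LP neutrophils are mostly below it apart from Mvk, Mvd, Fdft1, Msmo1, Sc5d, Srebf2 and Scd1, and LP monocyte library III and LP MHCIIlow library II stand above their groups for several sterol genes. The colour scale ends at 3 on either side and deeper values are drawn at its end.

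The median over the 28 tested genes of log2 RPKM less the gene mean gives 1 value for a library. It was 0.70, 0.89 and 0.56 in tumour MHCIIhi macrophages (libraries I, V and VII) and -0.08, -0.08 and 0.03 in LP MHCIIhi macrophages (III, IV and V), without overlap. In MHCIIlow macrophages it was 0.62, 0.60 and 0.32 in tumour (I, V and VII) and 0.23, -0.17 and 0.00 in LP (II, III and IV), again without overlap. In monocytes the tumour libraries (I, II and V) at -0.09, -0.17 and -0.01 lay inside the range of the LP libraries (III, IV and V) at 0.54, -0.55 and -0.18. The neutrophils were at -0.06, -0.51 and -0.19 in tumour (I, II and V) and -0.98, -0.66 and -0.85 in LP (III, IV and V), the lowest group. The neutrophil values depend on scaling. The library sizes behind the deposited values were 0.466 to 1.51 times the summed reads, with the 3 tumour neutrophil libraries the lowest of all. With summed reads as library sizes, chosen after the data were seen, the neutrophil means were -1.34 in tumour and -1.44 in LP, with overlap, and with libraries centred on their medians they were 0.19 and -0.63. In every group below, libraries are given in these orders. LP monocyte library III, with the most squamous transcripts, was the highest of the LP libraries.

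**Figure D2:**
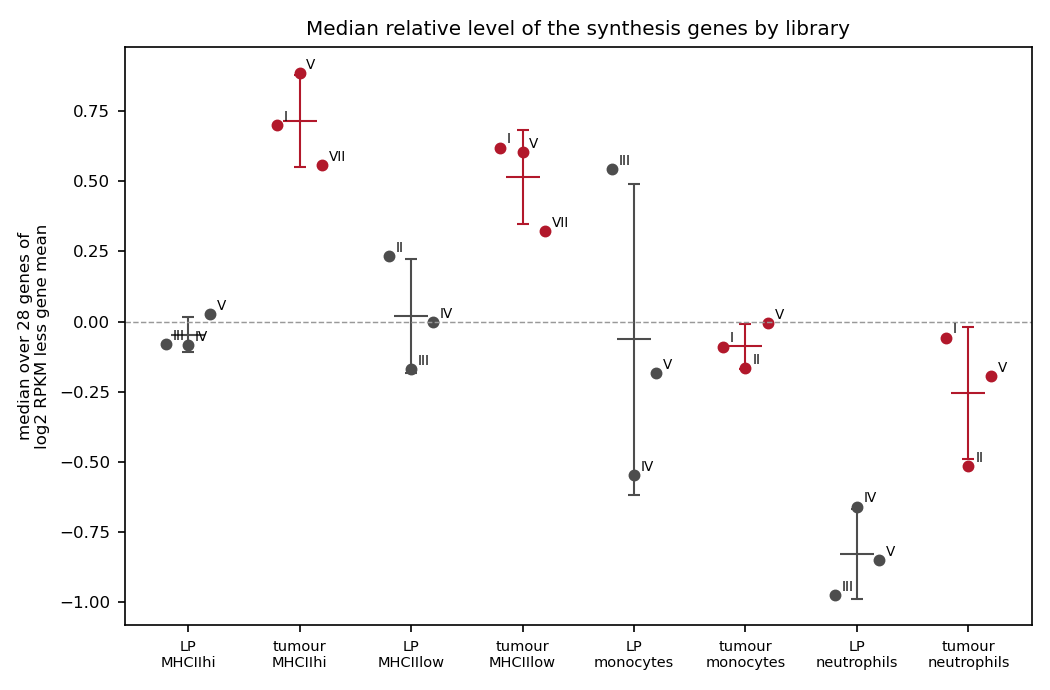
Median over the 28 tested genes of log2 RPKM less the mean of each gene over 24 libraries (vertical axis), by group. Points are libraries with their Roman number, bars and whiskers the mean and SD of 3, grey LP and red tumour; both tumour macrophage groups lie above their LP groups, while the LP monocytes span the tumour monocytes.

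The first question was which of these genes differed between tumour and LP in each population. In MHCIIhi macrophages 7 of 28 rose and 0 fell (limma on the log2 RPKM values, Benjamini-Hochberg over all genes tested, threshold 0.05), where 8.01% of all genes tested rose and 11.5% fell. In MHCIIlow macrophages 5 rose and 1 fell (11.5% and 11.8% of all genes). In monocytes 3 rose and 1 fell (4.86% and 4.43%). In neutrophils 8 rose and 2 fell (13.1% and 19%). An unadjusted p under 0.05 was found for 11 of 28 in MHCIIhi macrophages (30.9% of all genes), 12 in MHCIIlow macrophages (33.8%), 9 in monocytes (22.4%) and 11 in neutrophils (41.6%). By voom on recovered reads 13 were higher and 0 lower in MHCIIhi macrophages (14.2% and 15.3% of all genes), 9 and 2 in MHCIIlow macrophages (16.4% and 15.6%), 4 and 1 in monocytes (7.49% and 6.2%), and 6 and 2 in neutrophils (10.7% and 10.8%). The median change over the 28 genes was 0.73 on the log2 scale in MHCIIhi macrophages, 0.49 in MHCIIlow macrophages, -0.03 in monocytes and 0.59 in neutrophils, beside medians over all genes tested of 0.00, 0.06, 0.00 and -0.12. In all, 15 of the 28 genes passed the test in at least 1 population, 13 of them upward and 2 (Mvk and Msmo1) downward. None of the 28 passed it in opposite directions in 2 populations. The share of all genes that passed in at least 1 population was not counted, so the 15 are a description.

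Counted by libraries that do not overlap, 17 of the 28 genes were higher and 0 lower in all 3 tumour MHCIIhi libraries than in all 3 LP libraries, against 20.9% and 22.1% of all genes tested. Lss is among the 17 and entered the tests through tumour MHCIIhi macrophages alone. Its part in this count and in the median change of that population is a description. The counts were 10 and 2 in MHCIIlow macrophages (22.7% and 19.3% of all genes), 5 and 3 in monocytes (16.2% and 15.1%), and 8 and 2 in neutrophils (18.3% and 21.8%). An exact permutation test of 3 against 3 libraries cannot go below p = 0.1, so single genes rest on the fit over all genes. The deposited values of neutrophils depend most on scaling. With the summed reads as library sizes, 6 of the 28 genes rose and 6 fell in tumour neutrophils and the median of all genes moved to -0.59, and with libraries centred on their medians 10 rose and 1 fell. Without LP monocyte libraries III and V, 5 genes rose in monocytes (Mvd, Acly, Scd2, Mvk and Stard4) and 0 fell. Single libraries moved some counts by more than 1.5 times. In MHCIIlow macrophages 3 rose with LP library IV left out (and 2 fell) or with tumour library V left out (and 0 fell). In monocytes 3 fell without LP library IV and 2 without tumour library II. In neutrophils 1 fell without any 1 library other than tumour library I.

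**Figure D3:**
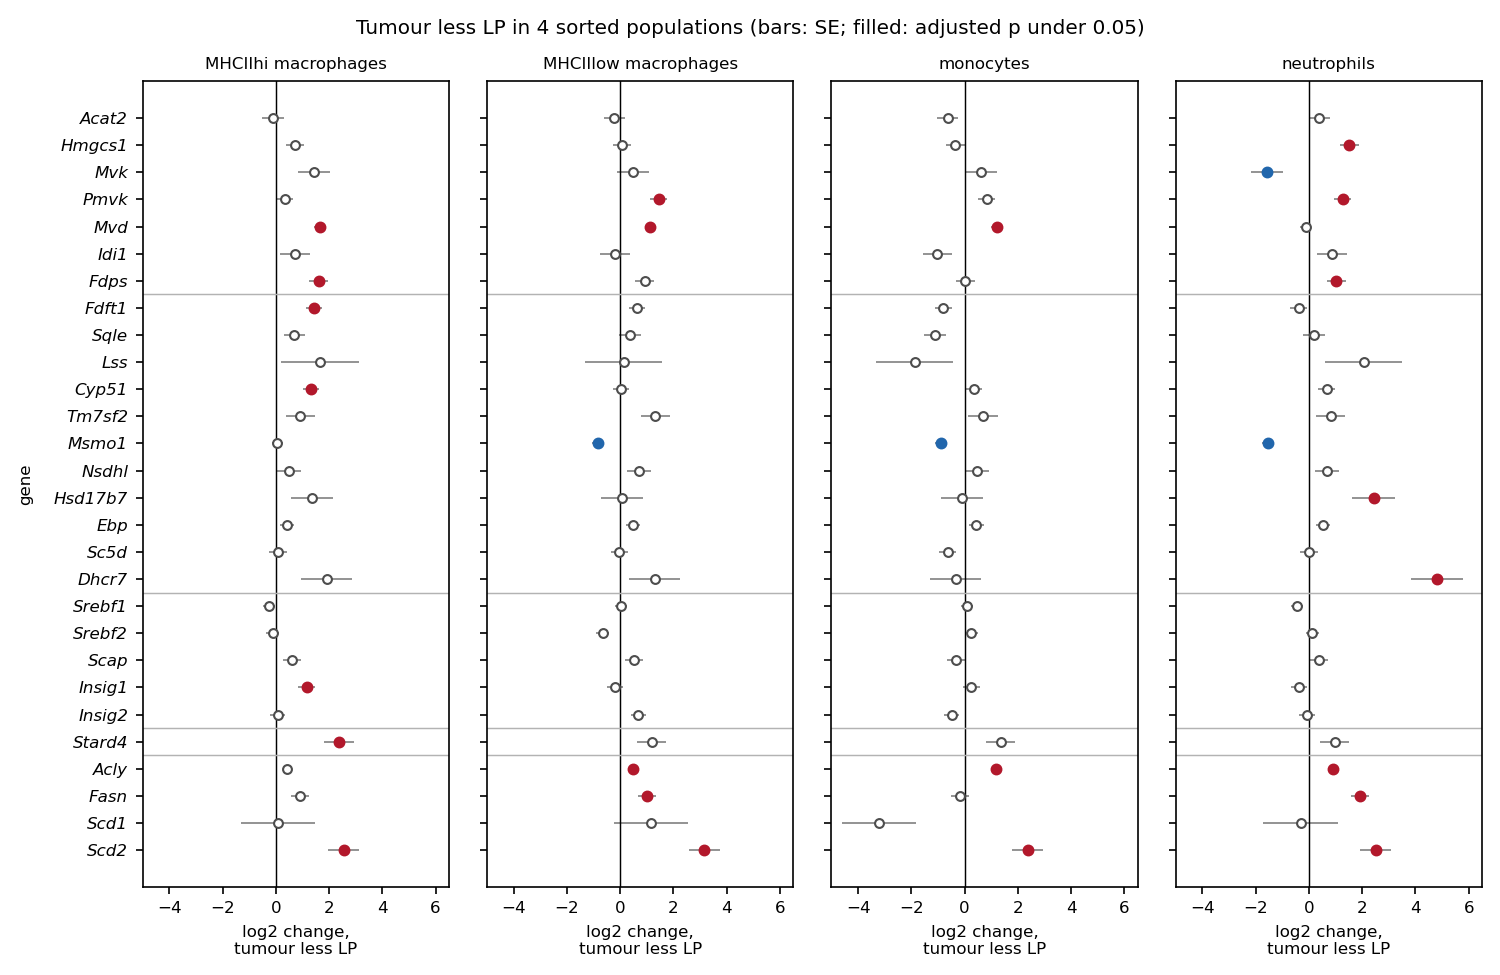
Change from LP to tumour (horizontal axis, log2 RPKM, tumour less LP, with the SE of the fit) of the 28 tested genes in MHCIIhi macrophages, MHCIIlow macrophages, monocytes and neutrophils. Filled points passed the test at an adjusted p of 0.05 (red higher, blue lower) and open points did not; Scd2 is filled to the right in all 4 panels and Msmo1 to the left in 3.

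In the mevalonate arm, 2 of 7 genes rose in MHCIIhi macrophages, 2 in MHCIIlow macrophages, 1 in monocytes and 3 in neutrophils, and 1 (Mvk) fell in neutrophils, beside 8.01%, 11.5%, 4.86% and 13.1% of all genes that rose and 19% that fell in neutrophils. Mvd (chr8:122433601-122443422, minus strand, GRCm38), the decarboxylase that makes isopentenyl diphosphate, rose in all populations but the neutrophils. In MHCIIhi macrophages its log2 RPKM was 4.66, 4.19 and 4.22 in tumour and 2.78, 2.52 and 2.83 in LP, a difference of 1.65 ± 0.21 (SE; limma adjusted p = 1.07e-05). In MHCIIlow macrophages it was 4.42, 4.24 and 4.01 and 3.45, 2.85 and 2.99, a difference of 1.13 ± 0.21 (SE; limma adjusted p = 0.000483). Monocytes had 4.76, 4.77 and 4.38 in tumour and 3.58, 3.27 and 3.40 in LP, a difference of 1.22 ± 0.21 (SE; limma adjusted p = 0.000864). The tumour and LP libraries did not overlap in any of these 3 populations. In neutrophils LP was as high as tumour, at 5.20, 5.06 and 4.36 against 4.59, 4.95 and 4.71, with a difference of -0.12 ± 0.21 (SE; limma adjusted p = 0.699).

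Pmvk, the kinase just before Mvd in the chain, was 5.26, 4.75 and 4.03 in tumour and 2.81, 3.75 and 3.13 in LP MHCIIlow macrophages, a rise of 1.45 ± 0.31 (SE; limma adjusted p = 0.00171). In neutrophils it was 5.45, 4.90 and 4.44 and 3.77, 3.73 and 3.51, a rise of 1.26 ± 0.31 (SE; limma adjusted p = 0.0039). In both populations the libraries of the 2 tissues were apart. In MHCIIhi macrophages, where LP was already high at 4.79, 4.79 and 4.86, tumour libraries were at 5.80, 5.04 and 4.63 and the difference of 0.34 ± 0.31 (SE; limma adjusted p = 0.509) did not pass. Fdps (chr3:89093588-89101959, minus strand) makes farnesyl diphosphate, the branch point to squalene and protein prenylation. It was 5.43, 5.03 and 4.22 in tumour and 2.95, 3.25 and 3.64 in LP MHCIIhi macrophages, a rise of 1.61 ± 0.35 (SE; limma adjusted p = 0.00264). In neutrophils it was 3.81, 2.99 and 2.84 and 1.56, 2.38 and 2.59, a rise of 1.03 ± 0.35 (SE; limma adjusted p = 0.0298) that was lost without LP neutrophil library III or tumour neutrophil library I (limma adjusted p from 0.151 to 0.16). Part of the Fdps exons, 26.7%, overlaps the annotated gene Gm43738 on the same strand, so its reads cannot be fully assigned.

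Hmgcs1, which joins acetyl-CoA units into HMG-CoA, rose in neutrophils, from 2.89, 3.48 and 2.53 in LP to 4.81, 4.66 and 4.0 in tumour, by 1.52 ± 0.34 (SE; limma adjusted p = 0.00195), and the libraries of the tissues were apart. In MHCIIhi macrophages its tumour libraries (4.24, 4.41 and 4.55) were also all above LP (3.50, 3.48 and 4.03), but the difference of 0.73 ± 0.34 (SE; limma adjusted p = 0.149) did not pass. Mvk, mevalonate kinase, fell in neutrophils from 3.62, 3.06 and 3.67 in LP to 2.18, 1.39 and 2.05 in tumour, a change of -1.58 ± 0.59 (SE; limma adjusted p = 0.0477), without overlap. That call was lost when any 1 of the 6 neutrophil libraries was left out (limma adjusted p from 0.0554 to 0.146) and with quantile normalization or centring on medians. In the 3 other populations the change of Mvk was 1.45, 0.47 and 0.61 (MHCIIhi macrophages, MHCIIlow macrophages, monocytes) and passed in none. Acat2, the cytosolic thiolase of the first step, and Idi1, the isomerase before Fdps, passed in no population. The estimates ran from -0.63 to 0.39 for Acat2 and from -1.02 to 0.87 for Idi1. The transcripts of Acat2 and Idi1 share 38.9% and 25.2% of their 51-base stretches with copies elsewhere (Acat3 and Gm13502 first).

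In the squalene and sterol arm, 2 of 11 genes rose in MHCIIhi macrophages, 1 (Msmo1) fell in MHCIIlow macrophages and in monocytes, and 2 rose and 1 fell in neutrophils. Of all genes 8.01% rose in MHCIIhi macrophages, 11.8% fell in MHCIIlow macrophages, 4.43% fell in monocytes, and 13.1% rose and 19% fell in neutrophils. All 11 estimates were above 0 in MHCIIhi macrophages and 7 of 11 below 0 in monocytes. Lss is among the 11 and entered the tests through tumour MHCIIhi macrophages alone, so its estimate there is a description. Fdft1, squalene synthase, the committed step to sterols, was 3.39, 3.27 and 3.14 in tumour and 1.61, 2.36 and 1.5 in LP MHCIIhi macrophages. It rose there by 1.44 ± 0.30 (SE; limma adjusted p = 0.00199), with no overlap of libraries. Its exons overlap those of Ctsb, an abundant lysosomal protease gene, on the opposite strand over 18.3% of their length. The SMARTSeq2 libraries are not strand-specific, so the reads of Fdft1 cannot be fully assigned. Cyp51 (chr5:4081145-4104746, minus strand), the lanosterol demethylase, was 4.16, 4.09 and 4.02 in tumour and 2.54, 2.76 and 3.03 in LP MHCIIhi macrophages, a rise of 1.31 ± 0.31 (SE; limma adjusted p = 0.00441). In MHCIIlow macrophages the same gene was 3.57, 3.63 and 3.16 in tumour and 3.92, 3.46 and 2.86 in LP, so the libraries overlapped and the difference was 0.04 ± 0.31 (SE; limma adjusted p = 0.959).

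Msmo1 (chr8:64718139-64733792, minus strand), the monooxygenase that removes methyl groups from the sterol ring, went the other way. In neutrophils it was 3.11, 2.89 and 3.06 in tumour and 4.62, 4.79 and 4.26 in LP and changed by -1.54 ± 0.21 (SE; limma adjusted p = 1.89e-05). In monocytes it was 3.34, 3.08 and 3.03 and 4.19, 3.78 and 4.16 and changed by -0.89 ± 0.21 (SE; limma adjusted p = 0.0102). In MHCIIlow macrophages it was 3.56, 2.73 and 3.37 and 4.46, 3.71 and 4.0 and changed by -0.84 ± 0.21 (SE; limma adjusted p = 0.0062). In these 3 populations every tumour library was below every LP library. The MHCIIlow call was lost without tumour MHCIIlow library V (limma adjusted p = 0.0547), and the monocyte change was -0.63 (limma adjusted p = 0.36) without LP monocyte libraries III and V. In MHCIIhi macrophages the 2 tissues overlapped, at 3.92, 3.63 and 3.65 and 3.54, 3.67 and 3.85, with a difference of 0.05 ± 0.21 (SE; limma adjusted p = 0.914).

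Dhcr7, the reductase of the final step to cholesterol, was close to absent from LP neutrophils, with 4, 0 and 18 reads, and low in tumour neutrophils, with 28, 21 and 38 reads. On the log2 RPKM scale these were -4.42, -8.74 and -2.16 and -0.75, -0.55 and 0.39, a rise of 4.80 ± 0.97 (SE; limma adjusted p = 0.000785). The size of that difference rests on the 0.25 reads added before the logarithm: over the alternatives it ran from 0.76 to 6.28, and without LP neutrophil library IV, which held 0 reads, it was 2.99. In macrophages Dhcr7 was far higher, at 3.66, 3.82 and 3.56 in tumour and 1.76, 1.60 and 1.96 in LP MHCIIhi cells. The tumour libraries lay above LP without overlap there, but the difference of 1.91 ± 0.97 (SE; limma adjusted p = 0.19) did not pass. That SE comes from the spread over all groups, the LP neutrophils with their few reads included, and not from the MHCIIhi libraries alone. Hsd17b7, a sterol ketoreductase, was 0.50, -2.77 and -0.12 in tumour and -3.21, -5.02 and -1.45 in LP neutrophils, with 90, 6 and 36 and 13, 2 and 40 reads. Its rise of 2.43 ± 0.80 (SE; limma adjusted p = 0.0246) came with overlapping libraries and was lost on the log2(RPKM + 1) scale, and without LP neutrophil library III or IV or tumour neutrophil library I or V (limma adjusted p from 0.0523 to 0.147).

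The other 6 genes of the arm passed in no population. Sqle, the epoxidase that is a rate-limiting step of the sterol branch, was 2.02, 2.94 and 2.60 in tumour and 1.74, 1.70 and 2.01 in LP MHCIIhi macrophages, and 1.14, 1.11 and 0.93 in tumour and 3.44, 1.45 and 1.62 in LP monocytes. The estimates over the 4 populations were -1.11 to 0.70 for Sqle, -1.87 to 2.06 for Lss (lanosterol synthase), 0.69 to 1.32 for Tm7sf2 (a sterol reductase), 0.47 to 0.72 for Nsdhl (a sterol dehydrogenase), 0.41 to 0.52 for Ebp (a sterol isomerase) and -0.64 to 0.09 for Sc5d. Ebp, Tm7sf2 and Nsdhl were above 0 in all 4 populations without passing in any.

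Among the 5 SREBP regulators only Insig1 passed, and only in MHCIIhi macrophages, which does not show that it differed from the other populations. Insig1, itself a target of SREBP and its brake, was 5.48, 4.96 and 4.95 in tumour and 3.92, 4.09 and 3.91 in LP MHCIIhi macrophages, a rise of 1.16 ± 0.31 (SE; limma adjusted p = 0.011) without overlap. The call was lost without tumour MHCIIhi library I (limma adjusted p = 0.0572). In MHCIIlow macrophages the 2 tissues overlapped, at 4.89, 3.94 and 4.38 and 5.44, 4.04 and 4.33, with LP library II the highest of all. The transcription factors themselves passed in no population. The estimates over the 4 were -0.66 to 0.24 for Srebf2 and -0.45 to 0.11 for Srebf1, which serves mainly fatty acid synthesis. Scap (-0.32 to 0.59) and Insig2 (-0.48 to 0.69) did not pass either. Stard4, which carries sterol between membranes inside the cell, was 2.43, 1.80 and 2.15 in tumour and -0.05, 0.13 and -0.83 in LP MHCIIhi macrophages, a rise of 2.38 ± 0.56 (SE; limma adjusted p = 0.0046). In MHCIIlow macrophages (1.18), monocytes (1.35) and neutrophils (0.96) the estimates for Stard4 were positive and did not pass. Without LP monocyte libraries III and V the monocyte value was 2.78 (limma adjusted p = 0.0302).

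Among the genes of fatty acid synthesis, Scd2 was the 1 gene of the 28 that rose in every population. Scd2 (chr19:44293674-44306864, plus strand), a desaturase that makes monounsaturated fatty acids, was low in LP and moderate in tumour. In MHCIIhi macrophages it was 3.99, 4.23 and 3.86 in tumour and 1.49, 1.48 and 1.44 in LP, a rise of 2.55 ± 0.59 (SE; limma adjusted p = 0.0038). In MHCIIlow macrophages it was 4.20, 4.25 and 4.47 and 1.16, 1.07 and 1.20, a rise of 3.16 ± 0.59 (SE; limma adjusted p = 0.000477), or 8.95-fold. In neutrophils it was 2.90, 2.09 and 2.42 and -0.29, -0.22 and 0.41, a rise of 2.51 ± 0.59 (SE; limma adjusted p = 0.00278). Tumour and LP libraries were apart in these 3 populations. In monocytes it was 3.01, 3.95 and 3.83 and 3.41, -0.66 and 0.91, a rise of 2.38 ± 0.59 (SE; limma adjusted p = 0.0132), and LP library III, the one with the most squamous transcripts, lay above tumour library I. Without LP monocyte libraries III and V the rise was 4.25 (limma adjusted p = 5.78e-06). Leaving out LP monocyte library IV or V or tumour monocyte library II took the call away (limma adjusted p from 0.0573 to 0.0652), and without LP monocyte library IV the change was 1.44. Of the 51-base stretches of Scd2, 3.85% occur in other genes, mostly Scd1.

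**Figure D4:**
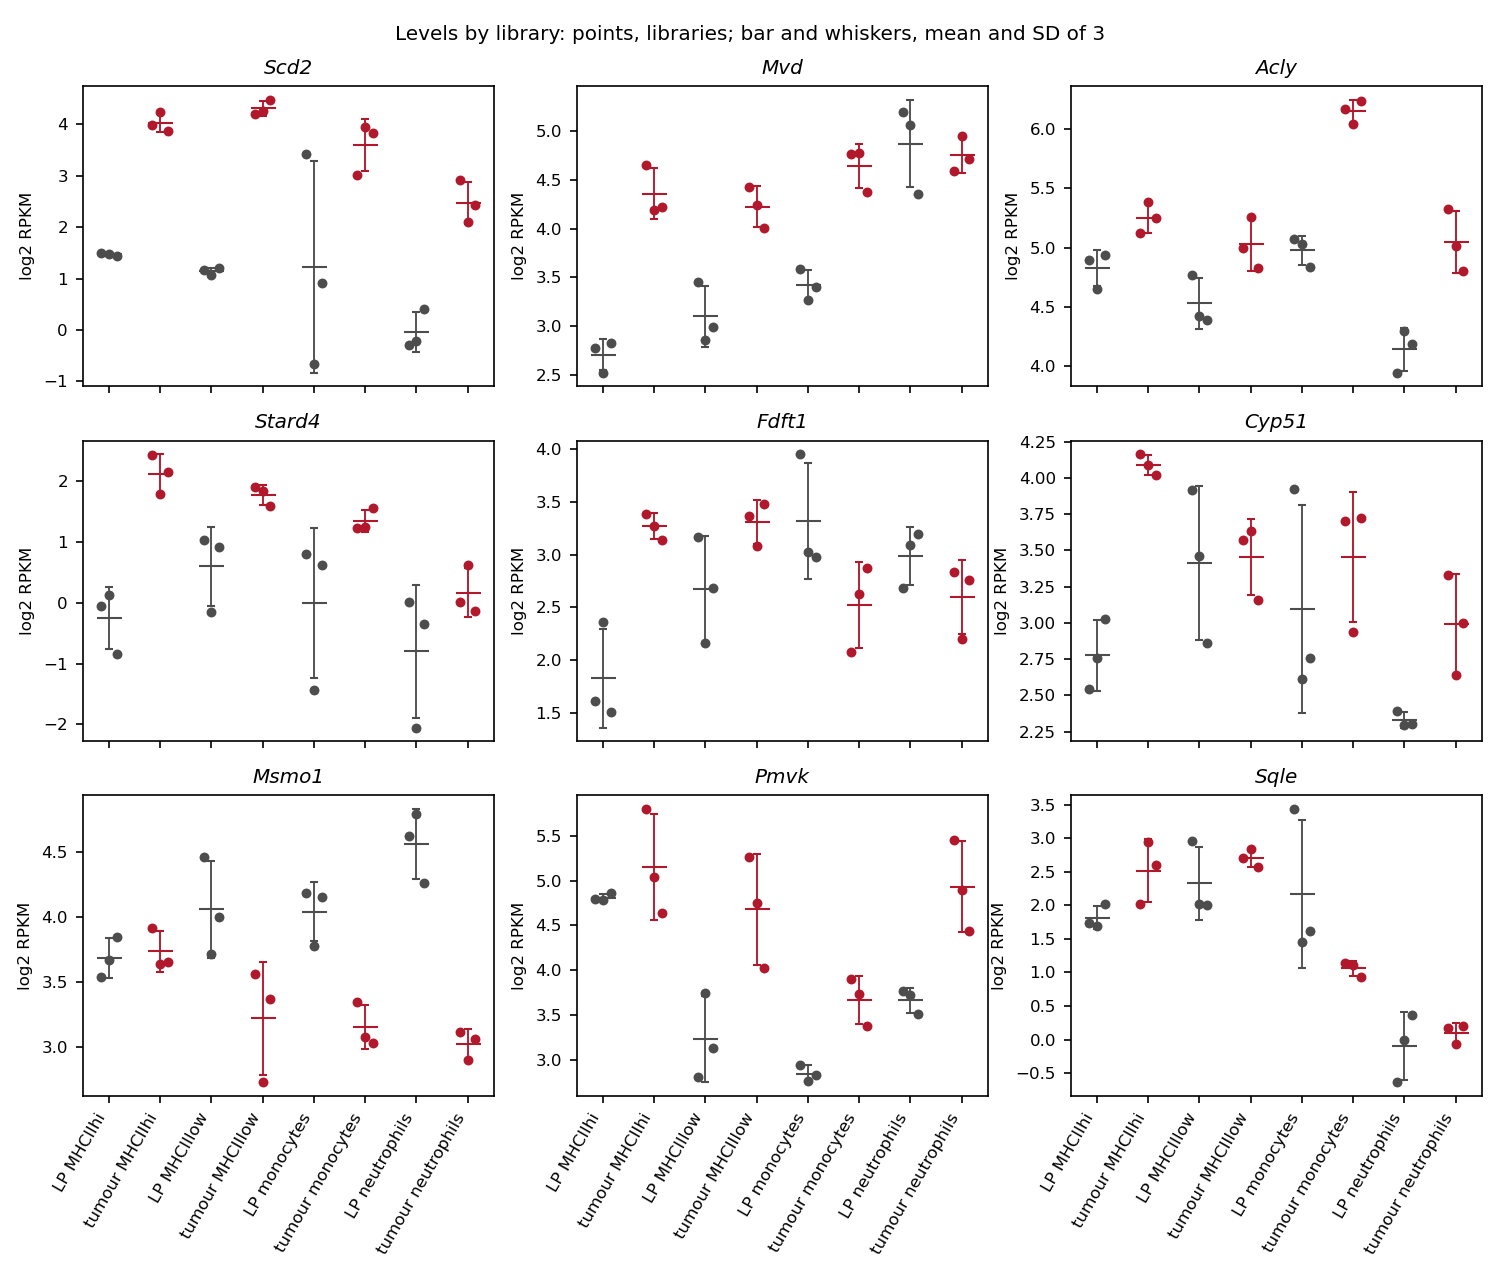
Log2 RPKM (vertical axes) of Scd2, Mvd, Acly, Stard4, Fdft1, Cyp51, Msmo1, Pmvk and Sqle by group, grey LP and red tumour. Points are libraries and bars with whiskers the mean and SD of 3; tumour Scd2 is above LP everywhere but for LP monocyte library III, and tumour Msmo1 is below LP except in MHCIIhi macrophages.

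Acly (chr11:100476353-100528000, minus strand) rose in monocytes, from 5.07, 5.03 and 4.84 in LP to 6.17, 6.04 and 6.24 in tumour, by 1.17 ± 0.15 (SE; limma adjusted p = 5.17e-05). In neutrophils it was 5.32, 5.01 and 4.81 in tumour and 3.95, 4.29 and 4.19 in LP, a rise of 0.90 ± 0.15 (SE; limma adjusted p = 0.000139). Both held under every library left out. In MHCIIlow macrophages it was 5.00, 5.26 and 4.83 and 4.77, 4.42 and 4.39, a rise of 0.50 ± 0.15 (SE; limma adjusted p = 0.0205) that was lost without LP MHCIIlow library III or IV or tumour MHCIIlow library V (limma adjusted p from 0.0731 to 0.122). In MHCIIhi macrophages all tumour libraries (5.12, 5.39 and 5.25) were above LP (4.89, 4.65 and 4.94), and the difference of 0.43 ± 0.15 (SE; limma adjusted p = 0.0539) did not pass. Fasn, which builds palmitate, was 0.08, 0.56 and 0.42 in tumour and -1.52, -1.96 and -1.23 in LP neutrophils, a rise of 1.92 ± 0.34 (SE; limma adjusted p = 0.000224). In MHCIIlow macrophages it was 1.76, 1.65 and 1.63 and 0.27, 1.14 and 0.58, a rise of 1.02 ± 0.34 (SE; limma adjusted p = 0.0327) that was lost in 5 of 6 omissions of 1 library, all but that of LP MHCIIlow library III (limma adjusted p from 0.07 to 0.14). In monocytes Fasn changed by -0.16 ± 0.34 (SE; limma adjusted p = 0.842). Scd1, the paralog of Scd2, passed in no population, and in tumour monocytes it held 0, 50 and 4 reads.

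A second question was whether the 2 macrophage subsets, which the sort separates by MHCII, differ in these genes. MHC class II markers (H2-Aa, H2-Ab1, H2-Eb1 and Cd74) summed to 16700 to 41100 RPKM in tumour MHCIIhi and 2120 to 9850 in tumour MHCIIlow macrophages. In LP they summed to 39000 to 45700 and 876 to 3880, so the subsets lay closer together in tumour. In tumour, limma called 0 of 28 genes higher and 0 lower in MHCIIlow than in MHCIIhi cells (0.567% and 0.567% of all genes), with 3 at an unadjusted p under 0.05 (11.2% of all genes). By voom on recovered reads 0 were higher and 0 lower (0.66% and 1.21% of all genes). The limma estimates ran from -0.73 to 0.28 on the log2 scale with a median of -0.26, and 22 of 28 were below 0. In LP, 0 were higher (2.13% of all genes) and 1 lower (5.57%), with 3 at an unadjusted p under 0.05 (20.4% of all genes). Voom called 0 higher and 2 lower (5.75% and 8.53% of all genes). Without LP MHCIIlow library III the counts were 1 higher and 2 lower, and the share of all genes in that setting is not given. The 1 gene lower by limma with all libraries was Pmvk, at 2.81, 3.75 and 3.13 in LP MHCIIlow and 4.79, 4.79 and 4.86 in LP MHCIIhi macrophages, a difference of -1.58 ± 0.31 (SE; limma adjusted p = 0.00289) without overlap. The tumour effect itself (tumour less LP) did not differ by the test between MHCIIlow and MHCIIhi cells for any of the 28 (1.13% and 0.326% of all genes were called), with 4 at an unadjusted p under 0.05 (12.8% of all genes). Voom called 0 higher and 1 lower (2.56% and 1.62% of all genes). The limma estimates of this difference ran from -1.52 to 1.10.

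Macrophages (mean of both subsets) were set against monocytes of the same tissue. In tumour 11 of 28 genes were higher and 2 lower in macrophages (16.8% and 21.4% of all genes). The higher ones were Mvk, Pmvk and Fdps of the mevalonate arm, Fdft1, Sqle, Hsd17b7, Sc5d and Dhcr7 of the sterol arm, Scap, Fasn and Scd1. Hsd17b7 entered the tests through macrophage groups alone, the side on which it is higher, so its value is a description. Scd1 was low on both sides, at 0.857 and 0.532 RPKM in tumour MHCIIhi and MHCIIlow macrophages and 0.0283 in tumour monocytes. Its tumour monocyte libraries ran from 0.00183 to 0.368 RPKM and overlapped the MHCIIlow libraries (0.36 to 0.806). The size of its difference depends on the reads added before the logarithm. Sqle differed by 1.55 ± 0.35 (SE; limma adjusted p = 0.00164), Scap by 1.20 ± 0.29 (SE; limma adjusted p = 0.00284) and Fasn by 1.76 ± 0.29 (SE; limma adjusted p = 6.41e-05). The lower ones were Acly at -1.01 ± 0.13 (SE; limma adjusted p = 3.45e-06) and Srebf2 at -0.66 ± 0.21 (SE; limma adjusted p = 0.0179). With the number of the pooled donors as a replicate block, the difference was not called for Srebf2 (-0.67; limma adjusted p = 0.0833), Fdft1 (0.68; adjusted p = 0.0982) or Hsd17b7 (1.38; adjusted p = 0.207), and 1 gene was lower in place of 2. Without tumour monocyte library I or II the count of higher genes was 5 or 6. In LP 1 gene was higher, Pmvk, and 3 lower (Mvd, Fdft1 and Insig2), against 12.5% and 17% of all genes. Pmvk differed by 1.17 ± 0.27 (SE; limma adjusted p = 0.00231). With the replicate block Insig2 was not called in LP (limma adjusted p = 0.0617). Without LP monocyte library III, 5 were higher and 1 lower, and without LP monocyte library V 1 was lower. With LP monocyte libraries III and V left out, the LP counts were 3 higher (Mvk, Sc5d and Scd2) and 0 lower. Pmvk was then at 1.26 (limma adjusted p = 0.0613), Mvd at -0.37 (limma adjusted p = 0.467) and Fdft1 at -0.78 (limma adjusted p = 0.193).

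Neutrophils carried another pattern of the same genes. In LP 5 of 28 genes were higher and 16 lower in neutrophils than in monocytes, against 24.1% and 30.4% of all genes. The higher ones were Mvk, Pmvk and Mvd, 3 consecutive steps of the mevalonate arm, with Msmo1 and Sc5d of the sterol arm. Mvk was 3.62, 3.06 and 3.67 in LP neutrophils and 1.14, -2.27 and -0.51 in LP monocytes, a difference of 4.0 ± 0.59 (SE; limma adjusted p = 1.12e-05). Sc5d differed by 1.92 ± 0.33 (SE; limma adjusted p = 6.29e-05) and Mvd by 1.45 ± 0.21 (SE; limma adjusted p = 8.04e-06). The lower ones included 8 of the 11 genes of the sterol arm, with Sqle at -2.26 ± 0.41 (SE; limma adjusted p = 0.000106), and Fasn at -1.88 ± 0.34 (SE; limma adjusted p = 9.32e-05). When LP monocyte libraries III and V were left out, 4 were higher (Mvk, Mvd, Sc5d and Scd1) and 7 lower, of which Sqle, Ebp and Dhcr7 are of the sterol arm. Pmvk was then at 0.91 (limma adjusted p = 0.141), Msmo1 at 0.78 (limma adjusted p = 0.0523), and the difference of Mvk was 5.72. With the replicate block, Idi1, Lss, Cyp51, Tm7sf2 and Msmo1 did not pass in LP. Scd1 reached a mean of 1 RPKM in neutrophils only, so it entered the tests through the group where it is higher and its value is a description. In tumour 4 were higher (Mvk, Pmvk, Sc5d and Scd1) and 7 lower (Fdps, Nsdhl, Ebp, Srebf1, Insig1, Insig2 and Acly) against 23.3% and 34.9% of all genes, and 11 were lower with the replicate block. Scaling moved this split: with summed reads as library sizes 2 were higher and 18 lower at a median over all genes of -1.49, and with centring on medians 8 were higher and 4 lower. Without LP monocyte library III, 9 were lower in LP neutrophils, and without LP monocyte library IV or LP neutrophil library III or IV, 3 were higher. With these scalings the LP split was 3 and 21, and 6 and 11. Sc5d was higher in neutrophils of both tissues under each of these scalings, while for Mvd in tumour the direction turned with summed reads.

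Whether the tumour effect differed between populations was tested directly. Against monocytes, the effect in macrophages was higher for 2 genes (Fdft1 and Sqle) and lower for 1 (Acly), where 3.55% and 5.64% of all genes were called. Fdft1 differed by 1.83 ± 0.37 (SE; limma adjusted p = 0.00301), between positive estimates in both macrophage subsets (1.44 and 0.64) and -0.80 in monocytes. The overlap of its exons with Ctsb limits this value too. Acly differed by -0.71 ± 0.18 (SE; limma adjusted p = 0.018). In neutrophils against monocytes the effect was higher for 3 genes (Hmgcs1, Dhcr7 and Fasn) and lower for 1 (Mvd), where 3.61% and 5.5% of all genes were called. Mvd differed by -1.34 ± 0.30 (SE; limma adjusted p = 0.00739) and kept its call under each library left out. Once LP monocyte libraries III and V were left out, 0 genes were higher and 0 lower for macrophages. With the 1 LP monocyte library left, Fdft1 differed by 1.54 (limma adjusted p = 0.0661), Acly by -0.66 (limma adjusted p = 0.155) and Sqle by 0.93 (limma adjusted p = 0.363). In that setting 0 were higher and 3 lower (Mvk, Mvd and Scd2) for neutrophils. Without LP monocyte library III, 1 gene was higher and 2 lower for neutrophils, and 1 was higher for macrophages. Sqle was lost under most single omissions and Acly without LP or tumour monocyte library V, which took the lower count to 0. Both comparisons use the same monocyte libraries.

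Around synthesis, 37 tested genes of uptake, efflux, esterification and other lipid steps were followed. From LP to tumour 1 rose and 3 fell in MHCIIhi macrophages (8.01% and 11.5% of all genes), 6 and 3 in MHCIIlow macrophages (11.5% and 11.8%), 2 and 5 in monocytes (4.86% and 4.43%), and 4 and 8 in neutrophils (13.1% and 19%). Of the 10 genes of LXR, esterification and efflux, 4 fell and 1 rose in neutrophils and 3 fell in monocytes, and 2 rose in MHCIIlow macrophages, counts to be read against the same shares of all genes. Nceh1, which hydrolyses cholesteryl esters, had the largest fall in neutrophils, from 4.85, 4.70 and 4.83 in LP to 2.54, 2.09 and 2.15 in tumour, with a change of -2.53 ± 0.21 (SE; limma adjusted p = 5.92e-08). It had the largest fall in MHCIIhi macrophages too, from 6.23, 6.20 and 6.13 to 5.26, 5.53 and 5.17, with a change of -0.87 ± 0.21 (SE; limma adjusted p = 0.00495). Its libraries did not overlap in either. The largest rise in MHCIIhi macrophages was that of Acsl3, which activates long fatty acids, from -0.19, -0.32 and -0.79 to 2.28, 2.15 and 2.55, by 2.75 ± 0.80 (SE; limma adjusted p = 0.0185).

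In MHCIIlow macrophages the largest rise was that of Mbtps1, the protease that makes the first cut in SREBP, from 2.89, 2.74 and 2.72 to 3.32, 3.97 and 3.64, by 0.86 ± 0.26 (SE; limma adjusted p = 0.0188). The largest fall was that of Osbp, a sterol carrier at membrane contacts, from 2.87, 2.17 and 2.75 to 1.01, 0.78 and 1.86, with a change of -1.38 ± 0.37 (SE; limma adjusted p = 0.00941). In monocytes the largest called changes were in genes of few reads. Fads2, a desaturase of polyunsaturated fatty acids, had 71, 73 and 52 reads in tumour and 18, 0 and 20 in LP libraries, a rise of 3.92 ± 1.14 (SE; limma adjusted p = 0.0345). Ch25h, which makes an oxysterol that holds SREBP back, had 5, 0 and 0 reads in tumour and 25, 40 and 44 in LP, a change of -5.44 ± 1.59 (SE; limma adjusted p = 0.0358). Both sizes depend on the reads added before the logarithm. In the other comparisons, 0 pathway genes were higher and 1 lower in MHCIIlow than in MHCIIhi macrophages of tumour (0.567% and 0.567% of all genes). There 6 had an unadjusted p under 0.05 (11.2% of all genes), and voom called 0 higher and 1 lower (0.66% and 1.21%). In LP the counts were 1 and 7 (2.13% and 5.57% of all genes). For macrophages against monocytes they were 12 and 7 in tumour (16.8% and 21.4%) and 8 and 5 in LP (12.5% and 17%). For neutrophils against monocytes they were 7 and 16 in tumour (23.3% and 34.9%) and 9 and 14 in LP (24.1% and 30.4%). The tumour effect differed for 0 and 0 in MHCIIlow less MHCIIhi macrophages (1.13% and 0.326% of all genes). There 10 had an unadjusted p under 0.05 (12.8% of all genes), and voom called 1 higher and 1 lower (2.56% and 1.62%). It differed for 2 and 0 in macrophages less monocytes (3.55% and 5.64%) and for 1 and 3 in neutrophils less monocytes (3.61% and 5.5%).

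How far the genes moved together was described by each gene's Pearson correlation with the median of the other members, over the 24 libraries and, without the group means, over deviations within groups. Within groups it was highest for Scd2 (0.80), Sqle (0.79), Mvk (0.73) and Cyp51 (0.68), and near or below 0 for Insig1 (-0.03), Srebf1 (-0.05), Scd1 (-0.06) and Ebp (-0.23). Over all libraries Fdps (0.87) and Tm7sf2 (0.82) followed the others most, and Srebf2 (-0.52), Sc5d (-0.41) and Msmo1 (-0.32) ran against them. Among 5632 genes outside the lists with a mean of at least 10 RPKM in a group, those among the most like the median of the members over the 24 libraries were Dcakd, D10Jhu81e, Nde1, Maged1, Ccdc47, Ctsc, Fam172a, Cttn and 2610507B11Rik (Pearson r from 0.869 to 0.859). Within groups they were Cd81, Serpinb6a, Anxa1, Tubb4b, Tgm1, Cavin1, Cxcl5, Anxa3, Aacs and Cttn (r from 0.876 to 0.772). The points share libraries, depth and scaling, and LP monocyte library III lay farthest from its group mean. That library also held the most squamous transcripts (1850 RPKM). The SD of the median value of a library was 0.555 in LP monocytes and at most 0.235 in the other groups. The part of LP monocytes in the correlations within groups was not tested.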

How the data were processed

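RNA was sequenced from 24 libraries of sorted colon myeloid cells (SMARTSeq2, paired reads). Per the labels and methods, the authors used STAR 2.3 for alignment (build GRCm38/mm10) and featureCounts 1.5 for reads per GENCODE gene, and dropped rarely read genes. edgeR is also named in the submitters' processing notes. The deposited values are log2 RPKM, made by the authors with a prior of 0.25 reads and scaled library sizes. SMARTSeq2 libraries are not strand-specific, and whether counting used strand is not given in the sources used here. Whole reads were recovered from the values (100% of 415224 within 0.01 reads).

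Genes with a mean of at least 1 RPKM in at least 1 group (12878) entered 1 limma fit (limma 3.58.1 with trend, R 4.3.3) over all 8 groups, in 13 comparisons, with Benjamini-Hochberg adjustment at 0.05. The P-values measure the spread between pooled libraries, estimated for each gene over all 8 groups. The code was tested on simulated data. Alternatives were other log scales, filters and scalings, weights, fewer libraries, a block, voom on recovered reads, and each library left out. The 29 genes and the lists were chosen with earlier results of these data known. Per-library values are given for genes called in a tumour comparison or highest or lowest in a group, and pathway genes are named for the largest called rise and fall in each tumour comparison. The values of the pathway gene with the largest rise in tumour neutrophils, and 1 gene of the ranking by likeness, are not reported here. Libraries of a tissue with the same number were taken to come from the same pool of donors. Over 29 such pairs, deviations from group means correlated at -0.0661 to 0.2547 (median 0.0169), so the number was used as a block within tissues only.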

Additional observations from a re-analysis of the deposited data

Results flagged for a closer look

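The effect of tumour against LP differed between populations for 7 gene and population pairs by a direct test of the difference (an interaction term in limma over all genes). Of all genes, 3.55% were higher and 5.64% lower in macrophages less monocytes, and 3.61% and 5.5% in neutrophils less monocytes. In macrophages less monocytes the genes were Fdft1 (1.83 ± 0.37 (SE; limma adjusted p = 0.00301)), Sqle (1.65 ± 0.50 (SE; limma adjusted p = 0.0436)) and Acly (-0.71 ± 0.18 (SE; limma adjusted p = 0.018)). Reads of Fdft1 cannot be fully assigned, as its exons overlap those of Ctsb. Sqle did not pass when any 1 of 14 libraries was left out, and Acly did not without LP or tumour monocyte library V. In neutrophils less monocytes they were Hmgcs1 (1.86 ± 0.48 (SE; limma adjusted p = 0.0194)), Mvd (-1.34 ± 0.30 (SE; limma adjusted p = 0.00739)), Dhcr7 (5.14 ± 1.37 (SE; limma adjusted p = 0.0223)) and Fasn (2.09 ± 0.48 (SE; limma adjusted p = 0.00909)). Hmgcs1 did not pass without LP monocyte library III or LP neutrophil library V, and Dhcr7 did not without LP monocyte library III. The same LP monocyte libraries enter all 7 differences. Mvd was the 1 of the 7 that passed without LP monocyte libraries III and V, which carry squamous transcripts, at -1.49 (limma adjusted p = 0.0338). In the same setting, with 1 LP monocyte library left, the others were at 1.54 (limma adjusted p = 0.0661) for Fdft1, 0.93 (limma adjusted p = 0.363) for Sqle, -0.66 (limma adjusted p = 0.155) for Acly, 1.71 (limma adjusted p = 0.0884) for Hmgcs1, 4.12 (limma adjusted p = 0.213) for Dhcr7 and 1.89 (limma adjusted p = 0.0576) for Fasn. All 6 kept their direction, and the part of those transcripts was not tested.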

How the results depend on the processing

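Counts of the 28 genes that came out more than 1.5 times apart from the reported ones are given here, and the cause was not tested. The share of all genes called can move with the setting too and is not given for each. By voom on recovered reads 14.2% of all genes were higher in tumour MHCIIhi macrophages, in place of 8.01%. A moved count is therefore not a result about these 28 genes alone. On the log2(RPKM + 1) scale the counts were 13 higher from LP to tumour in MHCIIhi macrophages, 9 higher and 2 lower from LP to tumour in MHCIIlow macrophages, 2 higher in LP macrophages against monocytes, 6 higher for the tumour effect in macrophages less monocytes, and 2 lower for the tumour effect in neutrophils less monocytes. On the log2(RPKM + 0.1) scale the count was 2 higher in LP macrophages against monocytes. With no filter they were 1 lower from LP to tumour in neutrophils, and 1 higher for the tumour effect in macrophages less monocytes. With a mean of at least 5 RPKM asked of 1 group the count was 2 lower from LP to tumour in MHCIIlow macrophages. With quantile normalization they were 2 lower from LP to tumour in MHCIIlow macrophages, 1 lower from LP to tumour in neutrophils, 1 lower in tumour macrophages against monocytes, and 3 higher in LP neutrophils against monocytes. With libraries centred on their medians they were 2 lower from LP to tumour in MHCIIlow macrophages, 1 lower from LP to tumour in neutrophils, 8 higher and 4 lower in tumour neutrophils against monocytes, and 1 higher for the tumour effect in macrophages less monocytes. With only the libraries compared in the fit they were 11 higher from LP to tumour in MHCIIhi macrophages, 0 lower from LP to tumour in MHCIIlow macrophages, 5 higher from LP to tumour in neutrophils, 2 higher in LP macrophages against monocytes, 9 lower in LP neutrophils against monocytes, 4 higher for the tumour effect in macrophages less monocytes, and 1 higher for the tumour effect in neutrophils less monocytes. With library weights (arrayWeights) they were 13 higher from LP to tumour in MHCIIhi macrophages, 2 lower from LP to tumour in MHCIIlow macrophages, 1 lower from LP to tumour in neutrophils, 2 lower in MHCIIlow against MHCIIhi LP macrophages, and 5 higher for the tumour effect in macrophages less monocytes. With voom on recovered reads they were 13 higher from LP to tumour in MHCIIhi macrophages, 9 higher and 2 lower from LP to tumour in MHCIIlow macrophages, 2 lower in MHCIIlow against MHCIIhi LP macrophages, 5 higher in LP macrophages against monocytes, 4 lower in tumour neutrophils against monocytes, 1 lower for the tumour effect in MHCIIlow less MHCIIhi macrophages, and 5 higher for the tumour effect in macrophages less monocytes. With the pool of donors as a replicate block (fixed, within 1 tissue) they were 1 lower in tumour macrophages against monocytes, and 11 lower in tumour neutrophils against monocytes. With summed reads as library sizes, chosen after the data were seen, they were 6 lower from LP to tumour in neutrophils, 1 higher in MHCIIlow against MHCIIhi LP macrophages, 1 lower in tumour macrophages against monocytes, 3 higher in LP neutrophils against monocytes, 2 higher and 18 lower in tumour neutrophils against monocytes, 4 higher and 0 lower for the tumour effect in macrophages less monocytes, and 2 lower for the tumour effect in neutrophils less monocytes. Without LP monocyte libraries III and V, also chosen after the data were seen, they were 5 higher and 0 lower from LP to tumour in monocytes, 3 higher and 0 lower in LP macrophages against monocytes, 7 lower in LP neutrophils against monocytes, 0 higher and 0 lower for the tumour effect in macrophages less monocytes, and 0 higher and 3 lower for the tumour effect in neutrophils less monocytes. With 1 library left out at a time the counts ran over 3 to 5 higher and 0 to 2 lower from LP to tumour in MHCIIlow macrophages, 1 to 3 lower from LP to tumour in monocytes, 1 to 2 lower from LP to tumour in neutrophils. They ran over 0 to 1 higher and 1 to 2 lower in MHCIIlow against MHCIIhi LP macrophages, 1 to 5 higher and 1 to 4 lower in LP macrophages against monocytes, 5 to 11 higher and 1 to 2 lower in tumour macrophages against monocytes. They ran over 3 to 6 higher and 9 to 18 lower in LP neutrophils against monocytes, 1 to 3 higher and 0 to 1 lower for the tumour effect in macrophages less monocytes, 1 to 4 higher and 1 to 2 lower for the tumour effect in neutrophils less monocytes.

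Differences of single genes that turned their direction, called in at least 1 of the settings compared, were, with summed reads as library sizes, Pmvk (-0.0048) and Msmo1 (-0.31) in LP neutrophils against monocytes. Mvd (-1.02), Fasn (-0.93), Fdft1 (-1.06) and Srebf2 (-0.74) turned in tumour neutrophils against monocytes. Without LP monocyte libraries III and V the difference in tumour effect of Scd2 (neutrophils less monocytes) turned to -1.75. Of the other values of single genes over all alternatives, 6764 kept direction and side of the threshold, 225 lost the call, 181 gained one and 55 moved by more than the spread. With the pool of donors as a random replicate block no count of calls moved by more than 1.5 times. Genes of few reads are limited by depth: the size of the neutrophil differences of Dhcr7 and Hsd17b7 depends on the reads added before the logarithm.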
